A study of Mus musculus with 2 samples.

Results

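A set of 9 genes was followed in single cells of the mouse anterior eye segment. They encode membrane channels and transporters for water, bicarbonate and acid, and carbonic anhydrases. The genes were taken by symbol from both deposited count matrices, which list 32285 genes each. They comprise the water channels Aqp1, Aqp3 and Aqp5, the carbonic anhydrases Car2, Car3, Car12 and Car14, the sodium-bicarbonate cotransporter Slc4a4 and the membrane ion transporter Slc4a11. The NC-Foxc2-/- library came from Foxc2 flox/flox;Wnt1Cre+ mice, in which Cre under Wnt1 control deletes the transcription factor gene Foxc2 in the neural crest lineage. The Control library came from Foxc2 flox/flox mice without Cre, so both groups carried the floxed alleles. Mice were of mixed strain and 4 weeks old by the labels (3 to 4 weeks in the protocol), each library pooled the eyes of 4 to 6 mice, the iris was removed, and the NC-Foxc2-/- mice were those with moderate ocular phenotypes. With 1 pooled library per genotype there is no replicate, no test between genotypes was possible, and genotype, pool and library cannot be told apart. Every interval given is a 95% interval (exact Poisson for levels, exact conditional binomial for ratios, Clopper-Pearson for shares of cells) that covers counting error only.

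The NC-Foxc2-/- matrix held 11656 cell barcodes, of which 10872 passed the limit of 8% mitochondrial counts, against 11285 and 10773 in the Control matrix. The kept cells held 94644512 unique molecular identifiers (UMIs, 1 per captured transcript) in the NC-Foxc2-/- library and 119599692 in the Control library, with medians of 6517 and 7663 UMIs per cell. The libraries shared 52 barcodes. Foxc2 itself was at 6.58 counts per 1000000 UMIs (CPM) in the NC-Foxc2-/- library and 13.1 CPM in the Control library. In the meshwork cluster TM-1 it was at 8.76 CPM in NC-Foxc2-/- cells and 39.4 CPM in Control cells. In keratocyte-like cells it went against the label, with 9.82 CPM in NC-Foxc2-/- cells and 4.44 CPM in Control cells, and whether these reads lie in the deleted part of the gene was not tested.

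Aquaporins are membrane channels that let water follow salt, and Aqp3 also passes glycerol. Carbonic anhydrases convert carbon dioxide and water into bicarbonate and protons, and they feed transporters such as Slc4a4 that carry bicarbonate across the membrane. In the eye, the corneal endothelium uses such transport to keep the stroma clear, the ciliary body uses it to make aqueous humour, and the retinal pigment epithelium uses it to drain the space under the retina. Loss of human SLC4A11 causes a dystrophy of the corneal endothelium. In mice, Car3 is otherwise best known as an abundant carbonic anhydrase of muscle and fat with low activity.

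Summed over all kept cells, the genes differed widely between the libraries. Car3 stood at 25.2 CPM in the NC-Foxc2-/- library and 388 CPM in the Control library (ratio 0.0648), Slc4a11 at 5.72 and 66.2 CPM (0.0864), and Aqp5 at 93.4 and 808 CPM (0.116). Aqp3 (78.0 and 203 CPM) and Car14 (2.19 and 5.81 CPM) were also lower in the sums of the NC-Foxc2-/- library. Aqp1 was higher, with 1033 CPM in the NC-Foxc2-/- library and 537 CPM in the Control library (1.92, 1.91 to 1.94), and so was Slc4a4, with 113 and 80.4 CPM. Car2 (13.9 and 15.7 CPM) and Car12 (1.91 and 2.59 CPM) lay closest to each other on this scale, at ratios of 0.889 and 0.738. Such sums cannot tell fewer cells of a type from less RNA per cell, and the libraries differed in their cell types. When the class levels of both libraries were weighted by the Control library's cell classes, the ratios came to 0.771 for Car3, 0.724 for Slc4a11, 0.566 for Aqp5 and 1.27 for Aqp1. Weighted by the NC-Foxc2-/- library's classes they were 0.393, 0.526, 0.540 and 1.30 in the same order.

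The cells were therefore sorted into 20 named classes by clustering that left out all 9 genes and the other fluid transport genes. Names ending in -like rest on marker genes, and none of the 9 genes helped to define those classes or the pigment gene cluster. The meshwork, fibroblast and endothelial (EC) classes are those of the study, whose clustering is not described as leaving these genes out. Of all kept cells, 0.0828% (0.0379 to 0.157) were corneal endothelial-like in the NC-Foxc2-/- library and 1.57% (1.34 to 1.82) in the Control library. The epithelial-like classes made up 3.33% of NC-Foxc2-/- and 9.94% of Control cells (corneal), 1.53% and 4.82% (limbal) and 0.230% and 4.14% (conjunctival). Keratocyte-like cells made up 23.7% of NC-Foxc2-/- and 15.6% of Control cells. Shares from dissociated tissue also depend on dissection and digestion, whose part was not tested. A ratio between libraries was read only where a gene had at least 50 UMIs over both, and was called past the 2-fold rule at 2 or more, or at 0.5 or less. Of the 81 ratios of a gene in a class with that many UMIs, 25 were past the rule, as were 8.24% of all 140935 pairs of a gene and a class.

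**Figure D1:**
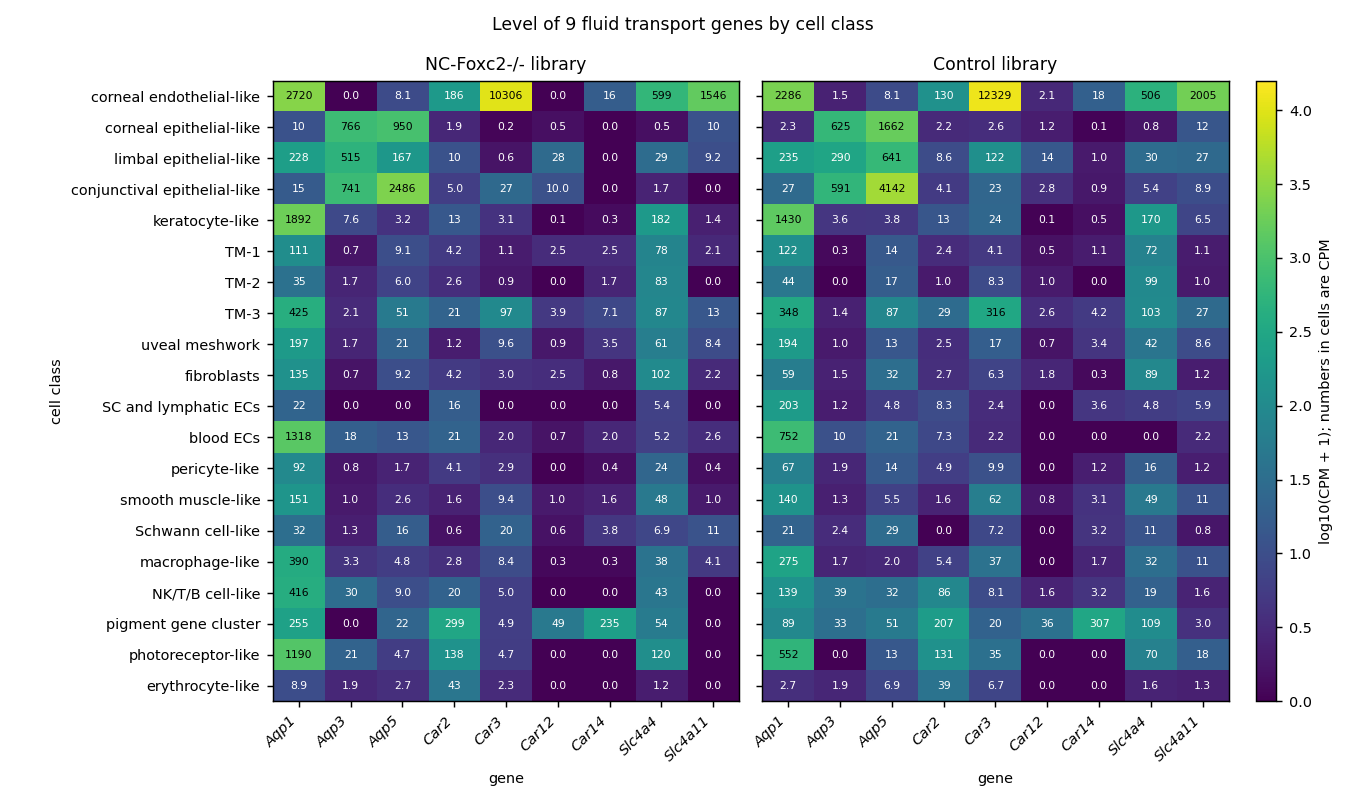
Level of the 9 genes in 20 cell classes, in the NC-Foxc2-/- library (left) and the Control library (right). Rows are classes, columns are genes, numbers are CPM and colour is log10(CPM + 1). The corneal endothelial-like row is brightest for Car3 (10306 and 12329 CPM), the epithelial rows for Aqp3 and Aqp5, and the keratocyte-like row for Aqp1 (1892 and 1429.8 CPM).

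For each gene the class with the highest level was the same in both libraries. It was the corneal endothelial-like class for Car3, Slc4a11, Aqp1 and Slc4a4, the pigment gene cluster for Car2, Car12 and Car14, the corneal epithelial-like class for Aqp3 and the conjunctival epithelial-like class for Aqp5. Car3 stood 106-fold (96.7 to 116) above the next class, TM-3, in the NC-Foxc2-/- library and 39.0-fold (37.3 to 40.8) above it in the Control library. Slc4a11 stood 123-fold (95.3 to 159) and 73.0-fold (62.7 to 85.4) above TM-3. Aqp1 was spread more evenly, at only 1.44-fold and 1.60-fold over keratocyte-like cells. The share of UMIs that the leading class held differed between libraries. The corneal endothelial-like class held 53.4% of Car3 UMIs in the NC-Foxc2-/- library and 88.9% in the Control library, and 35.3% and 84.9% of those of Slc4a11.

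The corneal endothelium is the single layer of pump cells on the back of the cornea. The class comprised 9 cells with 123523 UMIs in the NC-Foxc2-/- library and 169 cells with 3351512 UMIs in the Control library. Its defining marker list summed to 6541 CPM in NC-Foxc2-/- cells and 4335 CPM in Control cells, with Col4a3 at 2995 and 1479 CPM, Col8a2 at 1643 and 1245 CPM and Tmem178 at 121 and 260 CPM. Prdm16, also on the list, was at 0 UMIs in the NC-Foxc2-/- cells and 1 UMI in the Control cells. Of the 9 genes, 6 had enough UMIs here and none was past the 2-fold rule, where 24.1% of all genes read in this class were.

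Car3 (GRCm38 chr3:14863512-14872523, plus strand, protein coding) was the most heavily counted of the genes here. Its lowest, median and highest cell held 4836, 6974 and 21883 CPM in NC-Foxc2-/- cells, against 4579, 11715 and 26674 CPM in Control cells. Summed over cells it was at 10306 CPM in NC-Foxc2-/- and 12329 CPM in Control, a ratio of 0.836 (0.790 to 0.884). Every one of the 9 and 169 cells held Car3, and the ranges overlapped, with most NC-Foxc2-/- cells below the Control median. Slc4a11 (chr2:130684113-130697519, minus strand) had cells at 798, 1647 and 2343 CPM in NC-Foxc2-/- (lowest, median, highest) and at 0, 1774 and 4612 CPM in Control. The sums were 1546 CPM in NC-Foxc2-/- cells and 2005 CPM in Control cells (0.771, 0.664 to 0.891), and every NC-Foxc2-/- cell lay within the Control range.

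Aqp1 (chr6:55336432-55348555, plus strand) ran at 342, 2020 and 4440 CPM in NC-Foxc2-/- cells and 185, 1947 and 6249 CPM in Control cells. Its sums were 2720.1 CPM in NC-Foxc2-/- and 2286 CPM in Control (1.19, 1.06 to 1.33). This excess rested on 1 cell of 42338 UMIs, which held 188 of the 336 Aqp1 UMIs of the NC-Foxc2-/- class. Without the cell with most Aqp1 in each library the ratio was 0.815 (0.688 to 0.959), so the direction of Aqp1 was not settled. Slc4a4 (chr5:88886818-89239653, plus strand), which takes up bicarbonate at the basal side of these cells, had sums of 599 CPM in NC-Foxc2-/- and 506 CPM in Control (1.18, 0.925 to 1.49). Its medians per cell were 437 and 442 CPM. Car2 (chr3:14886273-14900770, plus strand), the highly active cytosolic enzyme, was at 186 CPM in NC-Foxc2-/- cells and 129.8 CPM in Control cells (1.43, 0.900 to 2.18), with medians of 120 and 55.4 CPM. Car14 was thin, with 2 UMIs in NC-Foxc2-/- cells and 61 in Control cells.

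The apparatus was present together in single cells. Aqp1 and Slc4a4 were both detected in 7 of the 9 NC-Foxc2-/- cells and in 165 of the 169 Control cells. When each cell was thinned to 1000 UMIs, Car3 was still found in 100% of cells of both libraries, Slc4a11 in 66.7% and 79.3%, and Aqp1 in 55.6% and 79.9%, from NC-Foxc2-/- to Control in each case. The list of other fluid transport genes had 17 members with enough UMIs here, of which 2 were higher and 2 lower past the 2-fold rule. Among the highest ratios was that of the cation-chloride cotransporter Slc12a2, at 48.6 CPM in NC-Foxc2-/- and 23.9 CPM in Control. The lowest were those of the bicarbonate transporter Slc4a8, at 8.10 and 29.5 CPM (0.274, 0.00687 to 1.56), and the sodium pump subunit Atp1b2, at 16.2 and 41.8 CPM. With 123523 UMIs in all in the NC-Foxc2-/- cells, their levels of Slc12a2, Slc4a8 and Atp1b2 rest on few counts. Bsg, the escort protein of the lactate transporters, was looked up after other values were seen and was at 8104 CPM in NC-Foxc2-/- and 10136 CPM in Control. Erythrocyte marker genes summed to 105 CPM in the NC-Foxc2-/- cells and 3547 CPM in the Control cells, and their part in these ratios was not tested.

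**Figure D2:**
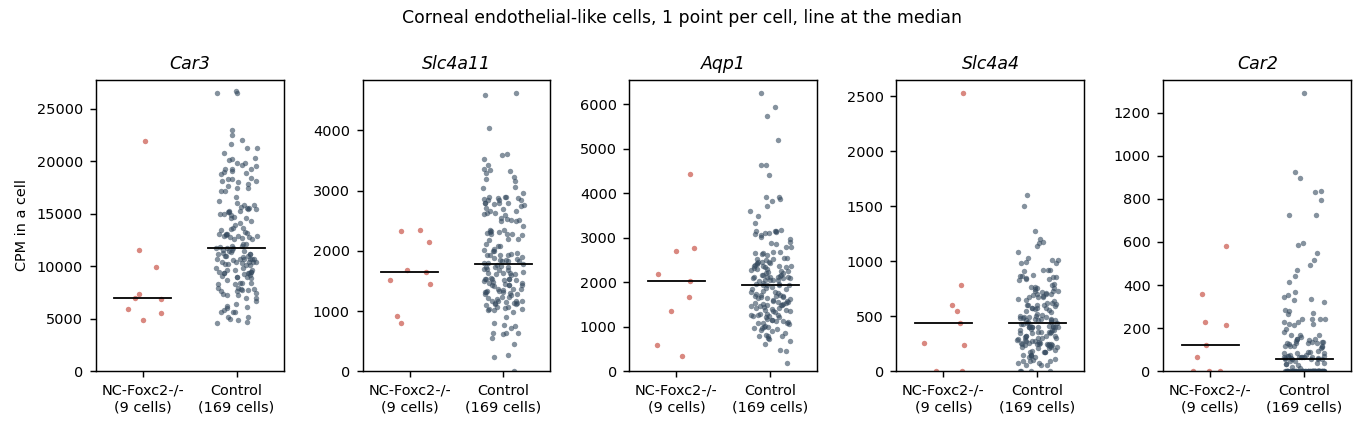
CPM of 5 genes in each corneal endothelial-like cell, with 1 point per cell and a line at the median, for 9 NC-Foxc2-/- cells (left) and 169 Control cells (right). Every NC-Foxc2-/- point lies within the Control range except 1 for Slc4a4 (2523 CPM), and the Car3 medians are 6974 and 11715 CPM.

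Aqp3 and Aqp5 were the water channels of the surface epithelia. Aqp3 was found in 76.0% of NC-Foxc2-/- and 96.9% of Control conjunctival cells and in over 90% of corneal and limbal cells of both libraries, while Aqp5 was found in 68.0% and 69.7% of conjunctival cells and in fewer limbal cells. Aqp3 (chr4:41092722-41098183, minus strand) is a water and glycerol channel of basal epithelial layers, and Aqp5 (chr15:99590782-99594829, plus strand) is the water channel of corneal epithelium and of secretory glands. Aqp3 was higher in the NC-Foxc2-/- library in all 3 epithelial classes, except in conjunctival cells thinned to 1000 UMIs per cell, while Aqp5 was lower in all 3. The promoter of Aqp3 is shown because this gene and Aqp5 share their cell types but differed in opposite directions between the libraries. It spans chr4:41098134-41098433 on the minus strand of GRCm38.p6 (RefSeq), 250 bases before the start of transcription and 50 after, with capitals at a TATAAA match beginning at -29 and a GGGCGG match, read here as CCGCCC, at -73.
Aqp3: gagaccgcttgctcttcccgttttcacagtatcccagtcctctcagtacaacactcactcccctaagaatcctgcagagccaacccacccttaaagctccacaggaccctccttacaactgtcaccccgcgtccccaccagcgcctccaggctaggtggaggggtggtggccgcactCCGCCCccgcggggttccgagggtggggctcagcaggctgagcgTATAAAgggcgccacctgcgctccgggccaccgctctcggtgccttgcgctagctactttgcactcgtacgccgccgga

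The letters TATAAA, searched on both strands, occur in 13.6% of 32851 promoters of this length and in none of the other promoters matched, and GGGCGG occurs in 35.7% and in 5 of the 7 promoters found for 6 of the 9 genes. Car2, Car3 and Slc4a11 had no entry in the promoter table. The match describes letters only.

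In corneal epithelial-like cells (362 NC-Foxc2-/-, 1071 Control), 6 of the 9 genes had enough UMIs, 1 was higher and 1 lower past the 2-fold rule, as were 2.02% and 2.16% of all genes read in this class. Neither of those was Aqp3 or Aqp5. Aqp3 was at 766 CPM in NC-Foxc2-/- cells and 625 CPM in Control cells (1.23, 1.19 to 1.27), with medians per cell of 715 and 562 CPM. Aqp5 was at 949.9 CPM in NC-Foxc2-/- and 1662 CPM in Control (0.572, 0.556 to 0.587), with medians of 445 and 1043 CPM. The corneal keratin Krt12, a marker of differentiated corneal epithelium, was lower too, at 10547 CPM in NC-Foxc2-/- and 17838 CPM in Control (0.591). Per Krt12 UMI there were 0.0901 Aqp5 UMIs in NC-Foxc2-/- and 0.0932 in Control, and 0.0726 and 0.0350 Aqp3 UMIs.

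Cells with an Aqp3 UMI made up 92.8% (89.7 to 95.3) of NC-Foxc2-/- and 96.8% (95.6 to 97.8) of Control corneal epithelial-like cells, and 51.8% and 45.7% at 1000 UMIs per cell. For Aqp5 the shares were 82.9% (78.6 to 86.6) and 91.5% (89.7 to 93.1), and 40.2% and 61.9% at 1000 UMIs. Erythrocyte-like cells, taken as a gauge of free RNA, held Aqp3 in 0.773% and 0.716% of cells and Aqp5 in 0.927% and 2.35%, so the epithelial shares lay above that background. Their median depth was 4085 UMIs in NC-Foxc2-/- and 4013 UMIs in Control, against 18800.5 and 18733 UMIs in corneal epithelial-like cells. The genes past the rule were thin here. Aqp1 had 65 UMIs in NC-Foxc2-/- and 49 in Control (10.3 and 2.31 CPM, ratio 4.48, 3.04 to 6.63), while the keratocyte gene Kera was at 9.54 and 3.49 CPM in the same cells, and the Aqp1 ratio was 1.05 with coarser clusters. Car3 had 1 UMI in NC-Foxc2-/- and 55 in Control. Slc4a11 was at 10.3 CPM in NC-Foxc2-/- and 12.2 CPM in Control (0.844, 0.633 to 1.11), a difference within counting error.

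In limbal epithelial-like cells (166 NC-Foxc2-/-, 519 Control), 8 of the 9 genes had enough UMIs, with 1 higher and 3 lower past the rule, as were 1.17% and 6.74% of all genes read. The limbal marker list summed to 11093 CPM in NC-Foxc2-/- and 12410 CPM in Control here. It was at 8904 and 10631 CPM in corneal and 9859 and 15882 CPM in conjunctival epithelial-like cells. That list alone therefore does not set the limbal class apart from the other epithelia. Aqp3 was at 515 CPM in NC-Foxc2-/- and 289.9 CPM in Control (1.78, 1.67 to 1.89), with medians per cell of 469.9 and 216 CPM. Aqp5 was at 167 CPM in NC-Foxc2-/- and 641 CPM in Control (0.261, 0.239 to 0.286). Here Aqp5 was lower beyond Krt12, which was at 2708 CPM in NC-Foxc2-/- and 5335 CPM in Control, leaving 0.0618 and 0.120 Aqp5 UMIs per Krt12 UMI. The difference lay in the upper part of the class: the median cell held 0 CPM of Aqp5 in both libraries, and the 90th percentile was 697 CPM in NC-Foxc2-/- and 1702 CPM in Control. Cells with an Aqp5 UMI were 32.5% of the NC-Foxc2-/- and 40.7% of the Control cells, and 13.3% and 19.7% at 1000 UMIs per cell. In those thinned cells the Aqp5 ratio was 0.585, which is not past the rule. Of the cells in this class 32.3% were called doublets, and the Aqp5 ratio was 0.234 without them.

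Car12 (chr9:66713686-66766845, plus strand), a membrane carbonic anhydrase that faces outward, had its largest share of UMIs in the limbal class, 48.1% in the NC-Foxc2-/- library and 47.1% in the Control library. It was at 27.6 CPM in NC-Foxc2-/- and 13.6 CPM in Control (2.04, 1.54 to 2.67). Its direction turned in cells thinned to 1000 UMIs (0.391), where under 5% of cells held it in either library. Slc4a11 was at 9.21 CPM in NC-Foxc2-/- and 26.8 CPM in Control (0.344, 0.226 to 0.505), but 60.4% of its Control UMIs sat in 5 cells. It was found in 25 of the 166 NC-Foxc2-/- and 78 of the 519 Control cells, which are nearly equal shares. Car3 had 2 UMIs in NC-Foxc2-/- and 1309 in Control, and 94.7% of the Control UMIs sat in 5 cells. Aqp1 (228 and 235 CPM) and Slc4a4 (29.2 and 29.7 CPM) were close in both libraries. Macrophage markers summed to 16.8 CPM in NC-Foxc2-/- and 165 CPM in Control limbal epithelial-like cells, and smooth muscle markers to 44.1 and 443 CPM. The promoter of Car12, chr9:66713436-66713735 on the plus strand of GRCm38.p6 (RefSeq), is shown because it was the only one of the 7 with the forkhead core letters TAAACA, in capitals as TGTTTA from -11, which 13.4% of promoters hold. The longer form GTAAACA was in none of the 7 and in 3.65% of all, and forkhead factors such as Foxc2 are known to bind cores of this kind. Binding at this match was not tested, and the match describes letters only.
Car12: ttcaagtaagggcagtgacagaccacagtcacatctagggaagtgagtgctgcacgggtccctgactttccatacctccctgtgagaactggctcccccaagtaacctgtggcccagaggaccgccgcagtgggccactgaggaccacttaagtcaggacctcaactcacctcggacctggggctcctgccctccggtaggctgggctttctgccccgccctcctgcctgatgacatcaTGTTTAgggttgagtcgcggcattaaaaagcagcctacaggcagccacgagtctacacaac

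In conjunctival epithelial-like cells (25 NC-Foxc2-/-, 446 Control), 7 of the 9 genes had enough UMIs, with none higher and 1 lower past the rule, where 5.59% of all genes read were higher and 14.0% lower. Conjunctival markers summed to 4669 CPM in NC-Foxc2-/- and 5457 CPM in Control, against 453 and 372 CPM in corneal epithelial-like cells. Corneal epithelial markers, Krt12 among them, summed to more in this class, 24860.5 and 24698 CPM. The name therefore does not set these cells apart from corneal surface epithelium. Aqp5 reached its highest level of any class here, 2486 CPM in NC-Foxc2-/- and 4142 CPM in Control (0.600, 0.570 to 0.632), with medians per cell of 1310.0 and 2422 CPM. Aqp3 was at 741 CPM in NC-Foxc2-/- and 591 CPM in Control (1.25, 1.14 to 1.38), with medians of 791 and 555 CPM. At 1000 UMIs per cell the Aqp3 ratio was 0.935 and the Aqp5 ratio 0.486, which is past the rule. The gene past the rule was Slc4a4, with 1 UMI in NC-Foxc2-/- and 69 in Control, whose interval (0.00774 to 1.79) spanned 1. Slc4a11 had 0 UMIs in NC-Foxc2-/- cells and 8.95 CPM in Control cells, a ratio of at most 0.558 with 3 counts per library as the floor. Skeletal muscle markers summed to 1548 CPM in the NC-Foxc2-/- cells and 1.87 CPM in the Control cells, and their part was not tested.

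Across the epithelia, the UMIs of Aqp5 per UMI of Aqp3 were 1.24 in NC-Foxc2-/- and 2.66 in Control corneal cells, 0.325 and 2.21 in limbal cells, and 3.36 and 7.01 in conjunctival cells. Since both genes were counted in the same cells, this ratio does not depend on the scaling between libraries. The order of classes by Aqp5 was conjunctival, corneal, limbal and then TM-3 in both libraries, with no overlap between neighbours. For Aqp3, corneal and conjunctival cells overlapped within counting error in the NC-Foxc2-/- library only. In finer clusters the Aqp5 ratio was 0.628 in the largest corneal cluster (898 CPM in NC-Foxc2-/-, 1429 CPM in Control) and 0.871 in a small cluster of 7 NC-Foxc2-/- and 74 Control cells at 3445 and 3953 CPM. The median gene lay at -0.153 in limbal and -0.180 in conjunctival cells on the log2 scale of NC-Foxc2-/- over Control, so ratios were also read relative to it. On that scale the limbal ratio of Aqp3 was 1.98 and that of Aqp5 0.291. The share of genes past the rule that were higher was then 28.0% in place of 14.8% in the limbal class and 43.5% in place of 28.6% in the conjunctival class.

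**Figure D3:**
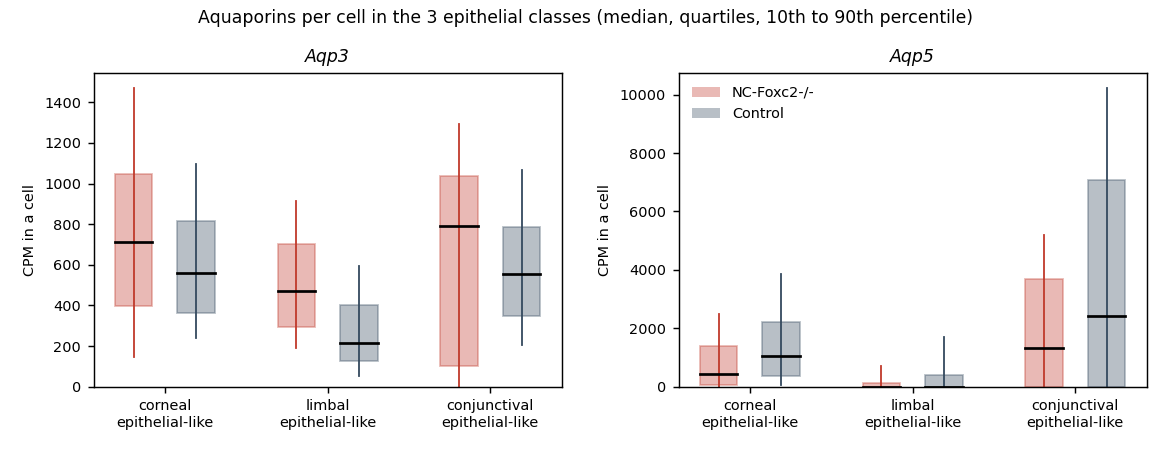
CPM per cell of Aqp3 (left panel) and Aqp5 (right panel) in the 3 epithelial classes, NC-Foxc2-/- before Control in each pair. The line is the median, the box the quartiles and the whisker the 10th to 90th percentile. The Aqp3 medians are higher and the corneal and conjunctival Aqp5 medians lower in NC-Foxc2-/- cells.

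Of the listed fluid transport genes, 19 had enough UMIs in corneal epithelial-like cells, with none higher and 1 lower past the rule. The bicarbonate cotransporter Slc4a7 had the highest ratio, at 71.4 CPM in NC-Foxc2-/- and 37.2 CPM in Control (1.92), followed by the lactate transporter Slc16a3 (6.36 and 3.77 CPM). The lowest were the scaffold gene Slc9a3r1, at 13.04 and 27.9 CPM (0.467), and the water channel Aqp2, at 2.54 and 4.38 CPM. In limbal cells 22 were read, with none higher and 2 lower, and Slc4a7 again had the highest ratio, at 66.4 CPM in NC-Foxc2-/- and 37.7 CPM in Control (1.76). The chloride channel Ano1 followed, at 7.62 and 4.46 CPM, while Slc16a3 (8.57 and 18.4 CPM) was among the lowest. In conjunctival cells 17 were read, with none higher and 3 lower, led by the anion exchanger Slc26a4 (13.3 and 8.01 CPM) and the mitochondrial carbonic anhydrase Car5b (51.6 and 32.7 CPM). The cytosolic carbonic anhydrase Car13, at 9.99 CPM in NC-Foxc2-/- and 55.1 CPM in Control (0.181), was lowest there.

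Keratocytes, the neural crest-derived cells of the corneal stroma, held most of the Aqp1 in either library. The keratocyte-like class had 2578 NC-Foxc2-/- and 1678 Control cells, and 75.3% and 61.3% of all Aqp1 UMIs. Of the 9 genes 7 had enough UMIs, 1 was higher and 2 were lower past the rule, as were 2.24% and 1.35% of all genes read in this class. Aqp1 was at 1892 CPM in NC-Foxc2-/- and 1429.8 CPM in Control (1.32, 1.31 to 1.34). Its 10th percentile, median and 90th percentile per cell were 883, 1806 and 3020.2 CPM in NC-Foxc2-/- and 719, 1348 and 2247 CPM in Control, so the whole distribution was shifted while overlapping broadly. The same direction was seen in the finer clusters of the class, at ratios of 1.37, 1.32 and 1.11. Aqp1 was detected in 2577 of 2578 NC-Foxc2-/- cells and in all 1678 Control cells, and in 81.4% and 72.1% at 1000 UMIs per cell.

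The keratocyte markers did not share this direction. Kera, the keratan sulphate proteoglycan that marks these cells, was at 3817 CPM in NC-Foxc2-/- and 4983 CPM in Control (0.766), and the whole keratocyte marker list at 12804 and 15924 CPM. Aqp1 UMIs per Kera UMI were therefore 0.496 in NC-Foxc2-/- and 0.287 in Control keratocyte-like cells. Other classes went both ways on this ratio. It was 0.450 in NC-Foxc2-/- and 0.284 in Control photoreceptor-like cells, 0.558 and 0.307 in NK/T/B cell-like cells, and 0.656 and 0.393 in macrophage-like cells. The opposite order was found in TM-1 (5.48 and 12.2), TM-3 (4.18 and 11.6), pericyte-like (4.29 and 13.6), smooth muscle-like (6.44 and 22.3) and blood EC cells (84.5 and 259), where Kera was low. Kera itself had more UMIs in NC-Foxc2-/- than in Control there, with 58 and 37 in TM-1 and 758 and 187 in TM-3. Its UMIs were 52 and 8 in pericyte-like, 45 and 24 in smooth muscle-like and 24 and 4 in blood EC cells. Photoreceptor-like cells were at 1189.8 CPM of Aqp1 in NC-Foxc2-/- and 552 CPM in Control, and macrophage-like cells at 389.9 and 275 CPM. How much of the Aqp1 in these other classes was free RNA was not tested.

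Slc4a4 was found in fewer keratocyte-like cells than Aqp1 and lay close to level between libraries. It was at 182 CPM in NC-Foxc2-/- and 170.0 CPM in Control (1.07, 1.03 to 1.11), in 81.6% (80.0 to 83.1) and 81.3% (79.4 to 83.2) of cells. Thinned shares were 15.3% and 13.2%, and erythrocyte-like cells held it in 0.464% and 0.614%. The class had 66.1% of Slc4a4 UMIs in the NC-Foxc2-/- library and 48.6% in the Control library. Car2 was at 13.5 CPM in NC-Foxc2-/- and 12.5 CPM in Control (1.07). Aqp3, the gene higher past the rule, was low, at 7.56 and 3.60 CPM (2.10, 1.67 to 2.66). Car3 was at 3.08 CPM in NC-Foxc2-/- and 23.8 CPM in Control (0.129, 0.106 to 0.158), but 81.7% of its Control UMIs sat in 5 cells, and the ratio was 0.517 without the 5 cells richest in Car3 in each library. Slc4a11 showed the same build, at 1.36 CPM in NC-Foxc2-/- and 6.54 CPM in Control (0.208), with 56.7% of its Control UMIs in 5 cells. Of the other fluid transport genes 29 were read, with 1 higher and none lower past the rule. Atp1b2 (3.24 CPM in NC-Foxc2-/-, 1.60 CPM in Control) and the chloride channel Clcn2 (3.31 and 1.75 CPM) had the highest ratios, and Slc4a8 (4.57 and 8.54 CPM) and the carbonic anhydrase-related gene Car11 (12.4 and 22.5 CPM) the lowest.

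The trabecular meshwork is the filter through which aqueous humour leaves the eye. Of its clusters, TM-3 (1142 NC-Foxc2-/-, 852 Control cells), gave the most values. Of the 9 genes 7 had enough UMIs, none was higher and 2 were lower past the rule, where 3.64% of all genes read were higher and 2.29% lower. Car3 was at 97.2 CPM in NC-Foxc2-/- and 316 CPM in Control (0.307, 0.282 to 0.335). It was found in 9.98% (8.31 to 11.9) of NC-Foxc2-/- and 20.5% (17.9 to 23.4) of Control cells, and in 3.82% and 8.31% at 1000 UMIs. The same shares in erythrocyte-like cells were 0.927% and 2.46%, in macrophage-like cells 1.79% and 3.23%, and in blood ECs 1.30% and 2.44%, so both TM-3 shares lay above the background, which was itself higher in the Control library. Slc4a11 was at 12.6 CPM in NC-Foxc2-/- and 27.5 CPM in Control (0.459, 0.353 to 0.594), in 5.78% and 10.4% of cells, and in 0.621% and 1.43% at 1000 UMIs.

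TM-3 was not uniform, and its sub-clusters separated where Car3 differed. In sub-cluster 7 (40 NC-Foxc2-/-, 73 Control cells), Car3 was at 536 CPM in NC-Foxc2-/- and 1062 CPM in Control (0.505, 0.417 to 0.607), beside corneal endothelial Col4a3 at 482 and 343 CPM and Npy at 983 and 676 CPM. Slc4a11 was at 65.5 CPM in NC-Foxc2-/- and 122 CPM in Control there. In sub-cluster 1 (101 and 198 cells) Car3 was at 13.01 CPM in NC-Foxc2-/- and 315 CPM in Control (0.0414, 0.0212 to 0.0728). In sub-cluster 2 (140 and 133 cells) it did not differ beyond counting error, at 73.3 and 75.2 CPM, and in sub-cluster 6 (96 and 61 cells) it was higher in NC-Foxc2-/-, at 166 CPM against 74.8 CPM in Control (2.22, 1.502 to 3.35). With the sub-clusters weighted as in the Control library the Car3 ratio was 0.439 and that of Slc4a11 0.728, and weighted as in the NC-Foxc2-/- library 0.464 and 0.869. The Slc4a11 ratio thus moved inside the 2-fold rule, while that of Car3 did not. The corneal endothelial marker list summed to 803 CPM in NC-Foxc2-/- and 1090 CPM in Control TM-3 cells, and its part in Car3 was not tested.

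A small number of Control cells weighed on Car3 outside the corneal endothelium. In the Control library 12 such cells held 100 or more Car3 UMIs each and 49.4% of all Car3 UMIs outside that class, and in the NC-Foxc2-/- library no cell did. All 12 also held Col4a3 and Slc4a11, 8 were called doublets, 5 were in the limbal class and 3 in TM-3. Leaving out all cells called doublets gave Car3 ratios of 0.344 in TM-3 and 0.375 in keratocyte-like cells. In smooth muscle-like cells 1 Control cell held 184 of 238 Car3 UMIs, and the Control level was 14.2 CPM without it. In macrophage-like cells 1 Control cell held 99 of 110, and the level was 3.75 CPM without it.

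Aqp1 in TM-3 was at 425 CPM in NC-Foxc2-/- and 348 CPM in Control (1.22, 1.16 to 1.29), yet the median cell was lower in NC-Foxc2-/-, at 152 CPM against 199 CPM in Control. The sum was carried by sub-cluster 9, which had 33 NC-Foxc2-/- cells, no Control cell, 3528 CPM of Aqp1 and no Myoc. Without it the Aqp1 ratio was 0.894 (0.842 to 0.948), and over the other 10 sub-clusters it was 1.08 weighted as in the Control library and 0.921 weighted as in the NC-Foxc2-/- library, so the direction of Aqp1 in TM-3 depended on the mix of sub-clusters. Cells with an Aqp1 UMI were 57.4% of NC-Foxc2-/- and 70.1% of Control cells, and 22.9% and 23.0% at 1000 UMIs. Aqp5 was at 51.1 CPM in NC-Foxc2-/- and 86.9 CPM in Control (0.588, 0.515 to 0.672), while the share of TM-3 cells with a Krt12 UMI was 8.58% and 24.3%. Among TM-3 cells with Aqp5 that share was 10.8% and 29.2%. Per Krt12 UMI there were 1.93 and 1.59 Aqp5 UMIs in TM-3, against 0.0901 and 0.0932 in corneal epithelial-like cells. The source of Aqp5 in TM-3 was not tested. Slc4a4 (86.6 and 103 CPM) and Car2 (20.9 and 28.6 CPM) were lower by less than the rule asks. Car14 was at 7.11 CPM in NC-Foxc2-/- and 4.15 CPM in Control (1.71, 1.05 to 2.85).

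**Figure D4:**
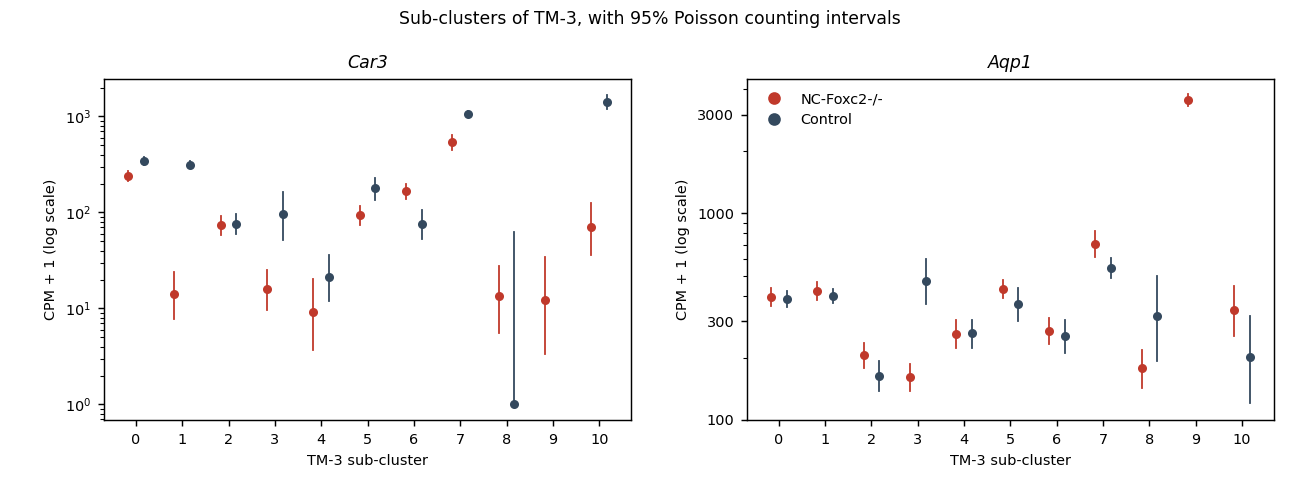
CPM + 1 on a log axis of Car3 (left panel) and Aqp1 (right panel) in the 11 sub-clusters of TM-3, NC-Foxc2-/- left of Control in each pair, with 95% Poisson intervals. Car3 differs most in sub-clusters 1 and 10 and is level in sub-cluster 2, and sub-cluster 9 has NC-Foxc2-/- cells only, at 3528 CPM of Aqp1.

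In TM-1 (499 NC-Foxc2-/-, 609 Control cells), 3 of the 9 genes had enough UMIs and none was past the rule, against 3.94% of all genes read. Aqp1 was at 111 CPM in NC-Foxc2-/- and 122 CPM in Control (0.917), Slc4a4 at 78.2 and 71.6 CPM (1.09) and Aqp5 at 9.11 and 13.8 CPM (0.662). In TM-2 (257 and 190 cells) only Aqp1 (35.2 and 44.4 CPM) and Slc4a4 (83.4 and 99.1 CPM) could be read, neither past the rule, which 4.65% of all genes read were. Slc4a4 was present in 28.7% and 28.2% of TM-1 cells and in 23.0% and 36.8% of TM-2 cells. In uveal meshwork cells (592 and 1025 cells) 5 genes were read with none past the rule, against 3.54% of all genes read. Slc4a4 was at 60.8 CPM in NC-Foxc2-/- and 41.6 CPM in Control there (1.46, 1.21 to 1.76), Aqp1 at 197 and 194 CPM, and Car3 at 9.55 and 16.9 CPM. Of the genes past the rule in uveal meshwork 58.0% were higher, or 47.9% when scaled by the median gene.

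The other fluid transport genes gave more readable values in the meshwork. In TM-1, 19 were read with 2 higher, Ano1 at 28.7 CPM in NC-Foxc2-/- and 11.1 CPM in Control (2.60) and the sodium pump subunit Atp1b1 at 24.9 and 9.99 CPM (2.49), and none lower, with Slc9a3r1 (17.2 and 26.2 CPM) among the lowest. In TM-2, 13 were read with 1 higher, Atp1b2 at 55.0 CPM in NC-Foxc2-/- and 24.8 CPM in Control (2.22), ahead of the potassium-chloride cotransporter Slc12a4 (40.4 and 28.9 CPM), and none lower, with Slc9a3r1 (19.8 and 37.2 CPM) and Bsg (368 and 498 CPM) lowest. In TM-3, 26 were read with 1 higher and 1 lower. The lactate transporter Slc16a1 was among the highest (57.8 and 33.9 CPM), and the lower one was Slc16a3 at 69.9 CPM in NC-Foxc2-/- and 217 CPM in Control (0.323), followed by the chloride transporter Clcn3 (10.3 and 19.3 CPM). In the uveal meshwork, 22 were read with none higher and 2 lower, among them Slc9a3r1 at 11.3 CPM in NC-Foxc2-/- and 25.5 CPM in Control (0.444). The highest there were the potassium-chloride cotransporter Slc12a7 (10.4 and 5.23 CPM) and Slc4a7 (65.1 and 41.98 CPM).

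**Figure D5:**
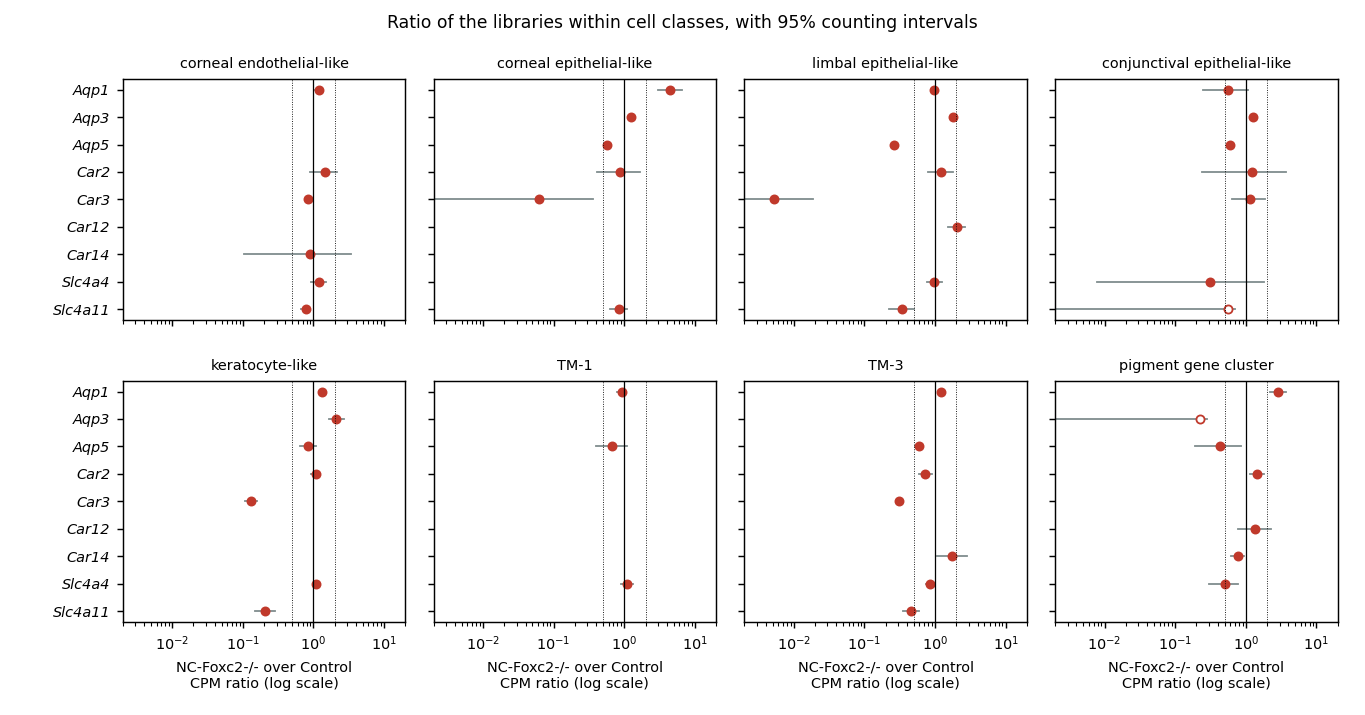
Ratio of NC-Foxc2-/- over Control CPM on a log axis for each gene with at least 50 UMIs in 8 classes, with 95% counting intervals (cut at the left edge of the panel). Dotted lines mark 0.5 and 2, and open circles are bounds where 1 library held 0 UMIs. No point passes the dotted lines in the corneal endothelial-like and TM-1 panels, while Car3 is past the lower line in corneal epithelial-like (0.0614), limbal (0.00522), keratocyte-like (0.129) and TM-3 (0.307) cells.

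Among the fibroblasts (962 NC-Foxc2-/-, 433 Control cells), 3 of the 9 genes had enough UMIs, with 1 higher and 1 lower past the 2-fold rule, as were 4.84% and 6.09% of all genes read in that class. Aqp1 was at 135 CPM in NC-Foxc2-/- and 59.3 CPM in Control (2.27, 1.94 to 2.67), Aqp5 at 9.22 and 31.6 CPM (0.292), and Slc4a4 at 102 and 88.8 CPM (1.15). Per Kera UMI there were 1.24 Aqp1 UMIs in NC-Foxc2-/- and 1.33 in Control fibroblasts, and per Krt12 UMI 0.733 and 0.938 Aqp5 UMIs. Of the Control Aqp5 UMIs 44.8% sat in 5 cells. How much of the Aqp1 and Aqp5 in fibroblasts was free RNA was not tested. Of the other fluid transport genes 22 were read there, with 3 higher and none lower. The bicarbonate transporter Slc4a10 was at 12.1 CPM in NC-Foxc2-/- and 3.01 CPM in Control (4.01) and Atp1b1 at 83.0 and 30.4 CPM (2.73). Slc16a3 (8.72 and 12.04 CPM) was among the lowest ratios.

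Blood vessel endothelium uses Aqp1 as its water channel, and in blood ECs (230 NC-Foxc2-/-, 123 Control cells) it was the only one of the 9 genes with enough UMIs. It was at 1318 CPM in NC-Foxc2-/- and 752 CPM in Control (1.75, 1.63 to 1.89), not past the rule, which 7.89% of all genes read in this class were. By sub-cluster it was highest in BEC-1, at 3020.2 CPM in 25 NC-Foxc2-/- cells and 1886 CPM in 8 Control cells (1.60). BEC-2 had 1186 CPM in NC-Foxc2-/- and 759.5 CPM in Control, BEC-4 1147 and 754 CPM, BEC-5 907 and 679 CPM, and BEC-6 802 and 563 CPM. Only in BEC-3 was it not higher in NC-Foxc2-/-, at 772 CPM against 815 CPM in Control (0.948, 0.788 to 1.14), an interval that spanned 1. A further sub-cluster of 22 NC-Foxc2-/- cells and no Control cell was at 2612 CPM. Cells with an Aqp1 UMI were 67.0% of NC-Foxc2-/- and 76.4% of Control blood ECs, but 45.3% and 39.0% at 1000 UMIs, where the ratio of the levels was 2.13 and so past the rule. Erythrocyte markers summed to 12621 CPM in NC-Foxc2-/- and 20692 CPM in Control blood ECs, and their part was not tested.

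In Schlemm's canal (SC) and lymphatic ECs (23 NC-Foxc2-/-, 84 Control cells), Aqp1 was again the only gene read, with 4 UMIs in NC-Foxc2-/- and 171 in Control (21.5 and 203 CPM, ratio 0.106, 0.0285 to 0.276), lower past the rule, where 4.44% of all genes read were higher and 5.21% lower. This ratio rested on 1 Control cell, without which the Control level was 43.1 CPM, and it was 1.09 at 1000 UMIs per cell. Of the other fluid transport genes, 15 were read in blood ECs with 3 higher and 1 lower. Car4, the carbonic anhydrase anchored on capillary endothelium, had the highest ratio, at 30.6 CPM in NC-Foxc2-/- and 5.08 CPM in Control (6.01), and Slc16a1 followed at 52.0 and 14.5 CPM (3.58). Slc16a3 (33.2 and 102 CPM) and the carbonic anhydrase-related gene Car8 (185 and 359 CPM) were lowest. In SC and lymphatic ECs 5 were read with 1 higher, Slc4a7 at 118 CPM in NC-Foxc2-/- and 41.6 CPM in Control (2.85), ahead of Ano6 (113 and 72.5 CPM), and Bsg (290.5 and 405 CPM) and Atp1b3 (221 and 216 CPM) were the lowest.

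The pigment gene cluster (63 NC-Foxc2-/-, 180 Control cells) mixed several pigmented and neuroepithelial cell types, and their proportions differed. Melanocyte markers summed to 5227 CPM in NC-Foxc2-/- and 26859 CPM in Control, and ciliary epithelial markers to 10051 and 4743 CPM. The ciliary list includes Ttr and Otx2, which retinal pigment epithelium also carries, so its sum does not tell ciliary from retinal pigment epithelium. Of the 9 genes 7 had enough UMIs, 1 was higher and 3 were lower past the rule, as were 7.19% and 10.3% of all genes read. Car14 (chr3:95897768-95904691, minus strand), a membrane carbonic anhydrase of retinal pigment epithelium, had 45.9% of its UMIs here in the NC-Foxc2-/- library and 74.1% in the Control library, at 235 and 307 CPM (0.766, 0.609 to 0.956). Its exons overlap those of Aph1a on the opposite strand. Car2 was at 299 CPM in NC-Foxc2-/- and 207 CPM in Control (1.44) and Car12 at 49.5 and 36.3 CPM (1.36). Aqp1 was higher past the rule, at 255 and 89.3 CPM (2.85), and per Kera UMI at 0.844 and 0.421. In each library 5 cells held most of it, with 96.1% of the Aqp1 UMIs in NC-Foxc2-/- and 78.7% in Control. Slc4a4 (54.4 and 109 CPM), Aqp5 (22.3 and 51.2 CPM, 1.51 at 1000 UMIs) and Aqp3 (0 and 33.3 CPM, at most 0.223) were lower past the rule. Of the Control UMIs, 72.1% for Aqp5 and 66.1% for Aqp3 sat in 5 cells. Corneal epithelial markers summed to 233 CPM in NC-Foxc2-/- and 2730 CPM in Control cells of this cluster, and their part in Aqp3 and Aqp5 was not tested.

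The sub-clusters of these cells gave the genes a place. Sub-cluster 1 (19 NC-Foxc2-/-, 23 Control cells) carried the retinal pigment epithelium genes Rpe65 (1467 and 2308 CPM), Ttr (48739 and 48159 CPM) and Rgr (4065 and 5764 CPM). There Car14 was at 633 CPM in NC-Foxc2-/- and 1283 CPM in Control (0.493, 0.350 to 0.683) and Car12 at 256 and 423 CPM, while Otx2, a transcription factor of this epithelium, was at 215 and 423 CPM. In sub-cluster 0 (4 and 56 cells), with melanocyte genes such as Dct and Mlana, Car14 was at 303 CPM in NC-Foxc2-/- and 324 CPM in Control. Sub-cluster 3 (0 and 30 cells), with Optc at 2315 CPM and Best2 at 138 CPM in Control, held Car2 at 831 CPM and Car14 at 174 CPM. Sub-cluster 5 (24 and 2 cells), with the glial gene Gfap at 1280 CPM in NC-Foxc2-/- and 0 in Control, held Car2 at 693 and 2846 CPM. All Slc4a4 of sub-cluster 4 (4 and 26 cells) was in Control, at 1484 CPM from 68 UMIs. The promoter of Car14, chr3:95904636-95904935 on the minus strand of GRCm38.p6 (RefSeq), is shown because it alone of the 7 held the letters TAATCC known from OTX factor sites, in capitals from -61, which 7.06% of promoters hold on either strand. Binding of OTX factors at this match was not tested, and the match describes letters only.
Car14: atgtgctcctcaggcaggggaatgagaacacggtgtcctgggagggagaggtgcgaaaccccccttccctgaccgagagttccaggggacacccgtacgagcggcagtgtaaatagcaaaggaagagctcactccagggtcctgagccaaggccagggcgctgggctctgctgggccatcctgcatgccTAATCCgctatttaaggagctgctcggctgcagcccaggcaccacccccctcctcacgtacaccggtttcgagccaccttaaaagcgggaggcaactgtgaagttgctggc

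Of the other fluid transport genes 20 were read in the pigment gene cluster, with 3 higher and 5 lower past the rule. Aqp4, the water channel of glia and ciliary epithelium, had the highest ratio, at 176 CPM in NC-Foxc2-/- and 30.4 CPM in Control (5.78), followed by Atp1b2 at 200 and 72.0 CPM (2.78). The lowest were Kcnj13, the potassium channel of retinal pigment epithelium, at 104 CPM in NC-Foxc2-/- and 497 CPM in Control (0.209), and the secreted carbonic anhydrase Car6 at 24.7 and 114 CPM (0.216). Car2 beyond this cluster was found in photoreceptor-like cells at 138 CPM in NC-Foxc2-/- and 131 CPM in Control, and in erythrocyte-like cells at 42.9 and 39.0 CPM. Car2 and Car3 lie side by side on chromosome 3, with 13750 bases between the end of Car3 and the start of Car2, yet their highest classes differed.

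The genes whose levels ran most like each of the 9 were ranked by Pearson's r of log2(CPM + 1) over 34 points, 17 classes in each of 2 libraries, among 11654 genes. The points share libraries and base their counts on the same cells, so r is a description. Slc4a4 had the closest partners, with the extracellular matrix gene Loxl1 at 0.939, the protease gene Ctsk at 0.933 and Prelp at 0.933. Aqp3 ran with Gm49890 (0.932) and the desmosome gene Pkp3 (0.925), and Aqp5 with the desmosome gene Dsp (0.907), Trim29 (0.890) and Anxa8 (0.883). Aqp1 ran with the endothelial transcription factor gene Erg (0.886), the junction gene Jam2 (0.855) and Cmklr1 (0.844). Car14 ran with Slc16a8 (0.898), Rgr (0.886) and Tmem56 (0.874), of which Slc16a8 is the lactate transporter of retinal pigment epithelium. Car12 ran with Krt8 (0.825), Krt23 (0.761) and Bmp7 (0.747), and Slc4a11 with Fam83g (0.720) and Eps8l2 (0.712). Car3 ran with Vwde (0.731), the carbonic anhydrase Car9 (0.700) and the claudin gene Cldn10 (0.695), and Car2 with Cntn1 (0.706), Rax (0.695) and Acsl6 (0.691). The corneal endothelial-like, conjunctival epithelial-like and SC and lymphatic EC classes had too few NC-Foxc2-/- cells to enter this ranking. The partners of Aqp5 therefore leave out the class where it was highest.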

How the data were processed

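Single-cell 3′ libraries (10x Genomics v3.1) of 1 pooled NC-Foxc2-/- and 1 pooled Control sample were analysed. Per the labels and the study's methods, reads were mapped to mm10 with Cell Ranger 4.0.0, and the authors deposited raw UMI counts per gene and cell for each library. Cells with over 8% mitochondrial counts were removed. With Python 3.11.15 and scanpy 1.11.5, cells were clustered on 2300 variable genes (15 principal components, 25 neighbours, resolution 0.8), leaving out 22 variable fluid transport genes. Meshwork, fibroblast and endothelial names were joined to cells from the study's source data values (98.5% to 100% of cells of each cluster), used for names only. The unnamed cells (1276 NC-Foxc2-/-, 609 Control) were left out of the class levels, and doublets (Scrublet) were kept. In the authors' combined table the counts of 20 genes differed from those of the matrices, and the matrices were used.

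UMIs were summed per library and class and given as CPM of the class total. Intervals were computed with SciPy 1.17.1, and the ratio code was tested on simulated data. Where 1 library held 0 UMIs, a bound from 3 counts was used. Thinning drew 1000 UMIs from each cell and left out shallower cells (24 NC-Foxc2-/- and 25 Control corneal epithelial-like cells, for example). The genes named were the 9 genes, the 3 most alike genes of each (classes of at least 30 cells per library, genes of at least 500 UMIs), and the 2 highest and 2 lowest ratios among the other fluid transport genes in each class described; a few genes that this rule picks are not reported here. Members and lists were chosen with earlier results of these data known. Alternatives were other resolutions, thinning, median scaling, a 5% mitochondrial limit, no doublets, clusters with the 9 genes, and leaving out the richest cell.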

Additional observations from a re-analysis of the deposited data

How the results depend on the processing

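No paired analysis was possible because each genotype had 1 pooled library. The count of 25 ratios past the 2-fold rule was 4 in cells thinned to 1000 UMIs and 19 to 26 under the other settings run. Over all genes, 11617 pairs of a gene and a class were past the rule with the minimum of 50 UMIs. With a minimum of 10 UMIs in its place 33955 pairs were past it, with 200 UMIs 3744, and after thinning 3233. For the other fluid transport genes, 36 pairs of a gene and a class were past the rule with 50 UMIs, where 8.24% of all 140935 pairs were. The number of these genes read is given above for each class described. The count past the rule was 104 with 10 UMIs, 13 with 200 UMIs and 10 after thinning. Gene and class pairs found in at least 50% of cells in both libraries numbered 16, and 5 after thinning. When ratios were followed with no minimum on the alternative's own UMIs, 14 of the 22 calls with a value after thinning were still past the rule, and 24 of 25 with median scaling. The direction turned for 5 calls: Aqp1 in SC and lymphatic ECs (1.09 thinned), Aqp1 in photoreceptor-like cells (0.342 at resolution 0.4), Aqp5 in the pigment gene cluster (1.51 thinned), Car12 in limbal cells (0.391 thinned) and Car3 in macrophage-like cells (1.92 without doublets, 1.22 without the richest cell), and the cause was not tested. The class with the highest level was kept for 15 of 18 gene and library pairs after thinning and for 17 with means per cell. TM-2 and the uveal meshwork had no cluster of their own when names were rebuilt without the study's, and dropping the mitochondrial limit was not run. The depth of the 9 NC-Foxc2-/- corneal endothelial-like cells limits every ratio of that class.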
